A study of Mus musculus with 10 samples.

Results

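The myostatin and activin signaling genes of skeletal muscle are described here in the gastrocnemius (GAS) of diet-induced obese (DIO) mice. The set is a list of 10 gene symbols, namely the ligand gene Mstn, the receptor genes Acvr1b, Acvr2a and Acvr2b, the extracellular inhibitor and follistatin-like genes Fst, Fstl1 and Fstl3, and the Smad genes Smad2, Smad3 and Smad7. All 10 were found among the 21160 genes of the count table, and 9 of them were among the 7819 genes with enough counts to be tested. Every mouse was a wild-type male of strain C57BL/6J by the labels (C57BL/6JBomTac in the study's methods) that went onto a high-fat diet at 9 weeks of age and stayed on it for 9 weeks before dosing. The 5 ASO mice then received RES-010, an antisense oligonucleotide with locked nucleic acid (LNA) bases against the microRNA miR-22, subcutaneously at 10 mg/kg once a week for 14 weeks. The 5 CTRL mice received the same volume of saline over the same 14 weeks, so the comparison holds both the blocking of miR-22 and the presence of an oligonucleotide, which cannot be told apart. The labels put dissection at 30 weeks of age, which is less than these ages and periods add up to. One library was made per mouse as far as the labels tell, and p-values measure the spread between these libraries.

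Myostatin, encoded by Mstn, is a secreted member of the TGF-beta superfamily that restrains muscle growth. It and the activins bind the type II receptors encoded by Acvr2a and Acvr2b, which recruit a type I receptor such as the one encoded by Acvr1b, and the active complex phosphorylates Smad2 and Smad3, which act in the nucleus together with Smad4. Follistatin (Fst) and Fstl3 bind the ligands outside the cell and keep them from the receptors, and Smad7 blocks the pathway at the receptor.

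Counts cover only the last part, at most 500 bp, of each annotated 3′UTR, called a segment below, and a gene's segments were summed. Library totals were 1606909 to 2116720 counts in CTRL and 2239186 to 2632560 in ASO, so every ASO library was deeper than every CTRL library. Levels are CPM values, read counts relative to the TMM-scaled library total, with the SD over 5 libraries. Skeletal muscle identity was visible in Acta1 and Ckm, the skeletal muscle actin and creatine kinase genes. They held most of a muscle fiber list that summed to 40595 to 79765 CPM in CTRL and to 84636 to 130012 CPM in ASO. In the same list the fiber genes Tnnt3 and Mylpf were at 0 in every library. Myh1, Myh2, Myh4 and Des reached at most 0.590, 1.89, 3.82 and 4.23 CPM in any library. The table counts no miR-22, so the target of the ASO could not be used to check the labels. Libraries CTRL 3 and ASO 4 stood apart in markers of other cell types. CTRL 3 had 13740 CPM of adipocyte markers against at most 2382 CPM in the other CTRL libraries, and ASO 4 had 541 CPM of Schwann cell markers against at most 122 CPM in the other ASO libraries.

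Because the treatment blocks miR-22, the miRNA and the stretches of the members' 3′UTRs that could pair with it are shown first. The mature miR-22-3p from RefSeq lies at chr11:75463772-75463793 on the plus strand of GRCm38.p6, and its seed, bases 2 to 8, is in capitals. The heptamer that pairs with the seed is GGCAGCT, searched on the sense strand only, and it occurs once in the longest annotated 3′UTR of 5 of the 10 genes. The 5 windows are read from the GENCODE M39 transcripts, 5′ to 3′ on the gene's strand, with the heptamer in capitals.
mmu-miR-22-3p: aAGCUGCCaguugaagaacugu
Acvr2b: atttcccccatccacGGCAGCTc
Fst: gatgttttttgtccaGGCAGCTc
Fstl1: cttcagtgtaactagGGCAGCTg
Fstl3: ctgctgcccagggatGGCAGCTg
Smad3: gtgctggcctgccatGGCAGCTg
On GRCm39 the windows lie at chr9:119267159-119267181 (plus) for Acvr2b, chr13:114591848-114591870 (minus) for Fst, chr16:37656276-37656298 (plus) for Fstl1, chr10:79617535-79617557 (plus) for Fstl3 and chr9:63555327-63555349 (minus) for Smad3. The base after the heptamer was C in Acvr2b and Fst and G in Fstl1, Fstl3 and Smad3. In Fst only 1 of 7 annotated 3′UTRs held the match, whereas all 4 of Smad3, 16 of 19 of Fstl1 and 10 of 12 of Acvr2b did. No match lay inside a counted segment, the nearest being that of Fstl1, 80 bp upstream of it. The match of Acvr2b lay 3113 bp downstream of the segment that holds nearly all of its counts. Mstn, Acvr1b, Acvr2a, Smad2 and Smad7 had no match in any annotated 3′UTR. Among the 7813 tested genes with an annotated 3′UTR, 32.1% held the heptamer in the longest one. As described below, the 5 genes with a match included 2 that fell, Acvr2b and Fst, and 3 that did not pass the test, Fstl1, Fstl3 and Smad3. Over all tested genes, 18.2% of those with a match and 17.1% of those without were lower, and the median log2 fold change was 0.01 with a match and −0.04 without.

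Of the 9 members tested, 3 were lower with the ASO (Acvr2b, Fst and Smad2), none was higher and 6 did not pass the test, which was the quasi-likelihood test of edgeR, adjusted by Benjamini-Hochberg (BH) over all genes, at an adjusted p of 0.05. Before adjustment, the edgeR p of Smad3 on the higher side was 0.0499 and no other higher member was under 0.05, and DESeq2 and limma-voom also called none higher. Over all 7819 genes, 29.2% were called in either direction, 17.5% lower and 11.7% higher. The CPM ranges of the groups did not overlap for 2 members, Fst and Smad2, both lower, where 13.4% of all genes were lower without overlap, and none was higher without overlap, where 7.98% of all genes were. The median log2 fold change of the 9 members was −0.26, beside −0.03 for all genes tested. In bulk tissue, fewer cells of a type and less RNA per cell cannot be told apart.

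**Figure D1:**
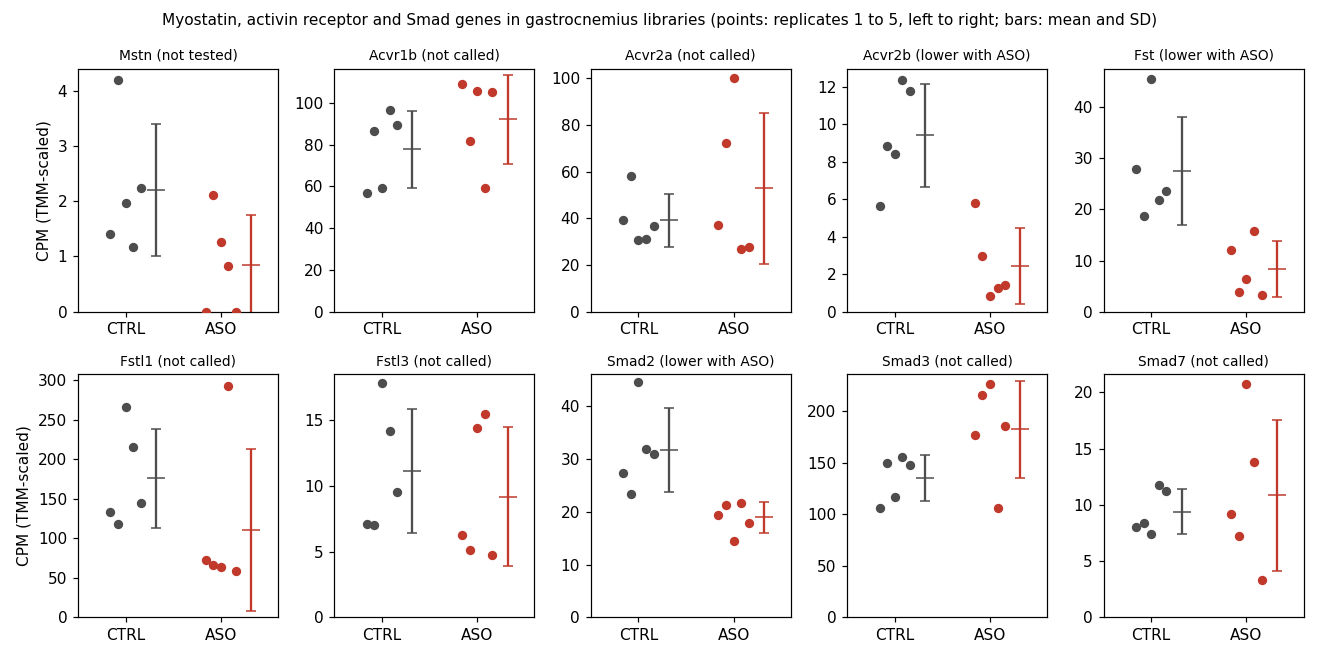
TMM-scaled CPM (y axis, from 0, a separate scale for each gene) of the 10 genes in the 5 CTRL and the 5 ASO libraries. Points are replicates 1 to 5 from left to right, and the bar is the mean with its SD. The ASO points lie below all CTRL points for Fst and Smad2, and 4 of 5 do so for Acvr2b, while the single high ASO point of Fstl1 is replicate 4 at 293 CPM.

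Mstn itself had counts close to the detection limit. Its 2 annotated 3′ segments (chr1:53106705-53107204 and chr1:53106739-53107238, plus strand, GRCm39) overlap except for 34 bp each, and all of its 32 counts were on the first. Reads on the shared part may have gone to neither segment, so these low counts do not show that Mstn RNA was scarce. The counts were 3, 9, 4, 2 and 4 in CTRL replicates 1 to 5 and 0, 5, 3, 2 and 0 in ASO replicates 1 to 5. The groups overlapped, and ASO replicates 1 and 5 had no count, which at the floor of 3 counts allows up to 1.45 and 1.41 CPM by counting error alone. The levels were 2.20 ± 1.19 CPM in CTRL and 0.845 ± 0.900 CPM in ASO (SD, n = 5 each), and their difference gave a two-sided exact permutation p of 0.071, where the smallest p of this design is 0.0079. No library reached the 4.59 CPM that the filter on low counts asks for, and Mstn was left out of the test across genes. The tested genes whose levels over the 10 libraries moved most like those of Mstn were 4921524J17Rik, Sp4 and Dzip3, with mean absolute differences of 0.26, 0.27 and 0.28 in centered log2 CPM. None of these 3 was called, and their log2 fold changes were −0.89, −0.79 and −0.71. The 3 genes were picked for closeness to a profile of 0 to 9 counts per library, so their values add nothing about Mstn.

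Among the receptor genes, Acvr2b was the one that fell. It encodes a high-affinity type II receptor for myostatin and activins, and 99.1% of its counts lay on 1 segment, chr9:119263562-119264061 on the plus strand, of which all 500 bp are unique. The gene had 12, 19, 17, 21 and 21 counts in CTRL replicates 1 to 5 and 12, 7, 2, 3 and 3 in ASO replicates 1 to 5. ASO replicate 1, at 5.79 CPM, overlapped with CTRL replicate 1, at 5.66 CPM, and the other 4 ASO libraries lay below every CTRL library. The level went from 9.42 ± 2.74 CPM to 2.46 ± 2.03 CPM, a log2 fold change of −1.93 (standard error 0.45, 95% interval −2.90 to −0.96, edgeR BH-adjusted p = 0.0072), or 3.80-fold lower. The exact permutation p for the same difference was 0.016. Acvr2b passed the filter through the CTRL group, since all 5 CTRL libraries but 1 ASO library exceeded its cutoff. The call held in each fit that left out 1 library, with log2 fold changes between −2.46 and −1.67. The longest annotated 3′UTR of Acvr2b runs on past the counted segment, and a shift toward ends beyond it was not tested.

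The other receptor genes did not pass the test. Acvr1b encodes the type I receptor ALK4 and is counted on chr15:101111066-101111565 (plus strand). Its CPM values were 56.6, 86.7, 59.3, 96.8 and 89.3 in CTRL and 109, 81.5, 106, 59.3 and 105 in ASO. The ranges overlapped, with 3 ASO libraries above every CTRL library and 1, ASO 4, near the bottom of the CTRL range. The means of 77.7 ± 18.5 and 92.2 ± 21.4 CPM gave a log2 fold change of 0.25 (standard error 0.21, 95% interval −0.20 to 0.70, edgeR BH-adjusted p = 0.40). Acvr2a encodes the other type II receptor. Its single segment, chr2:48792782-48793281 (plus strand), is covered over all 500 bp by an exon of Orc4 on the opposite strand and has 54 unique bp. The counting options that the study lists name none for strand, so reads of the 2 genes cannot be told apart. The CPM values were 39.1, 58.3, 30.6, 31.3 and 36.5 in CTRL and 37.2, 72.2, 100, 26.7 and 27.8 in ASO. The ASO libraries fell on both sides of the CTRL range, and the log2 fold change of 0.43 had a standard error of 0.36 and a 95% interval from −0.35 to 1.21 (edgeR BH-adjusted p = 0.39). That interval leaves room for a change of either sign in Acvr2a.

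Follistatin showed the most complete separation among the inhibitors. Fst, whose product neutralizes myostatin and activins, had 27.8, 18.7, 45.4, 21.8 and 23.6 CPM in CTRL and 12.1, 3.82, 6.34, 15.9 and 3.30 CPM in ASO. Every ASO library lay below every CTRL library, and 3 of the 5 ASO libraries passed the filter cutoff. The level went from 27.5 ± 10.6 CPM to 8.28 ± 5.48 CPM, a log2 fold change of −1.72 (standard error 0.41, 95% interval −2.61 to −0.83, edgeR BH-adjusted p = 0.0083), or 3.30-fold lower, with an exact permutation p of 0.0079, the smallest possible. CTRL replicate 3, the library rich in adipocyte markers, had the highest Fst level, and without it the log2 fold change was −1.47 (edgeR BH-adjusted p = 0.018).

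Fst is counted at 3 ends on the minus strand of chromosome 13, and the decrease was not spread evenly over them. The most distal segment, chr13:114588826-114589325, held 63.2% of its counts, the next, chr13:114589506-114589958, 31.6%, and the most upstream, chr13:114590245-114590744, 5.2%. On the middle segment the CTRL libraries had 7 to 32 counts and the ASO libraries 1 to 8. The share of Fst counts on the most distal segment was 55.7 ± 14.3% in CTRL and 83.3 ± 10.5% in ASO (exact permutation p = 0.024). Tested alone, the distal segment gave a log2 fold change of −1.10 that did not pass the threshold (edgeR BH-adjusted p = 0.058), where 40.6% of 10658 segments did. All ASO libraries were shifted toward distal ends across the table: over 1410 genes, the median log2 ratio of distal to upstream counts was −0.52 to 0.47 in CTRL and 1.20 to 1.74 in ASO. How much of the Fst difference goes with this shift was not tested beyond the distal segment itself. With only the most distal segment of every gene in the fit, Fst was at −1.38 (edgeR BH-adjusted p = 0.052).

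Fstl1 rested on 1 library. It encodes a secreted glycoprotein with a follistatin-like domain, made largely by connective tissue cells, and is counted on chr16:37656377-37656876 (plus strand). The CPM values were 133, 118, 266, 216 and 145 in CTRL and 72.4, 66.3, 63.4, 293 and 58.5 in ASO. Of the ASO libraries 4 lay below every CTRL library and ASO replicate 4 lay above all of them. The means of 176 ± 63.0 and 111 ± 102 CPM gave a log2 fold change of −0.66 (standard error 0.44, 95% interval −1.63 to 0.30, edgeR BH-adjusted p = 0.28). Without ASO replicate 4 the log2 fold change was −1.41 and passed the threshold (edgeR BH-adjusted p = 0.0022). Markers of fibro-adipogenic progenitors, the resident connective tissue cells of muscle, were set beside Fstl1. Their sum over 8 genes, of which Ly6a was at 0 and Dpt held the largest share, was 424, 611, 1781, 817 and 609 CPM in CTRL and 555, 369, 413, 756 and 163 CPM in ASO. ASO 4 was the highest ASO library in this sum, and CTRL 3 and CTRL 4, the highest CTRL libraries in the sum, were also the highest for Fstl1. Between the groups the order differed: ASO 1 had more of the sum than CTRL 1, 555 against 424 CPM, but less Fstl1, 72.4 against 133 CPM. In the same list Lum fell (log2 fold change −1.72, edgeR BH-adjusted p = 0.0013), and the other 4 tested genes did not pass. In ASO 4, where Fstl1 was highest, Lum was at 81.0 CPM, below its level in every CTRL library. Other genes of the list went the other way in ASO 4. Col1a1 was at 138 CPM there and Mfap5 at 137 CPM, against at most 63.7 and 95.3 CPM in CTRL. Pdgfra, at 3.76 CPM, was also above its highest CTRL value of 3.46 CPM, while Dpt and Col3a1 lay within their CTRL ranges. The part of fibro-adipogenic progenitors in the Fstl1 values was not tested.

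**Figure D2:**
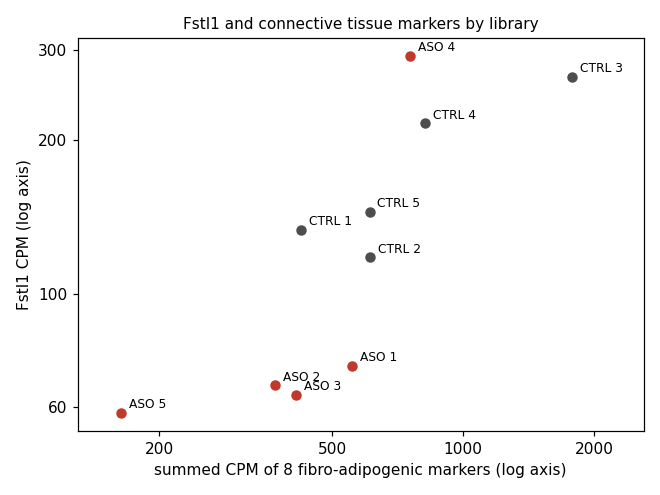
Fstl1 level (y axis, CPM, log scale) against the summed level of 8 fibro-adipogenic progenitor markers (x axis, CPM, log scale), with 1 point per library. ASO replicate 4 sits at 756 CPM of markers and 293 CPM of Fstl1, near CTRL 4, and the other 4 ASO libraries sit at 163 to 555 CPM of markers and at most 72.4 CPM of Fstl1.

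Fstl3, a close relative of follistatin that also binds activins and myostatin, was lowly counted. Its segment, chr10:79617965-79618464 (plus strand), lies wholly opposite an exon of Prss57, so reads of Prss57 cannot be told apart from its own. It had 15 to 36 counts in CTRL and 10 to 37 in ASO, or 11.1 ± 4.73 and 9.18 ± 5.27 CPM. The groups overlapped, and the log2 fold change of −0.26 had a 95% interval from −1.15 to 0.63 (edgeR BH-adjusted p = 0.66). Without CTRL replicate 3 it was −0.02, and counts this low leave the interval of Fstl3 wide on both sides of 0.

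Smad2 fell, while Smad3 did not pass the test. The products of both genes are phosphorylated by the same receptors. Smad2 had 27.4, 23.3, 44.5, 31.9 and 30.9 CPM in CTRL and 19.3, 21.2, 14.4, 21.7 and 17.9 CPM in ASO. The groups did not overlap, with the highest ASO library, at 21.7 CPM, under the lowest CTRL library, at 23.3 CPM. The level went from 31.6 ± 7.95 CPM to 18.9 ± 2.95 CPM, a log2 fold change of −0.74 (standard error 0.20, 95% interval −1.17 to −0.30, edgeR BH-adjusted p = 0.016), or 1.67-fold lower, with an exact permutation p of 0.0079. Leaving out CTRL replicate 3, where Smad2 was highest, gave −0.58 (edgeR BH-adjusted p = 0.038). Smad2 is counted at 2 ends 5669 bp apart on the plus strand of chromosome 18, with 78.1% of its counts on the upstream one, 76437866 to 76438365, and 21.9% on the distal one, 76443535 to 76444034. Unlike in Fst, the share on the distal end was not higher with the ASO: it was 24.9 ± 9.32% in CTRL and 17.6 ± 9.19% in ASO (exact permutation p = 0.28). Tested alone, the upstream and distal segments gave log2 fold changes of −0.59 (edgeR BH-adjusted p = 0.051) and −1.08 (edgeR BH-adjusted p = 0.062), both on the lower side and neither past the threshold.

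Smad3 is counted on chr9:63554049-63554548 (minus strand) and had 106, 150, 117, 155 and 148 CPM in CTRL and 177, 215, 227, 106 and 186 CPM in ASO. All ASO libraries except replicate 4 lay above every CTRL library, and replicate 4 lay at the bottom of the CTRL range. The means were 135 ± 22.4 and 182 ± 47.2 CPM, with a log2 fold change of 0.43 (standard error 0.20, 95% interval 0.00028 to 0.86, edgeR BH-adjusted p = 0.12) and an exact permutation p of 0.10. Without ASO replicate 4 the log2 fold change was 0.60 and passed the threshold (edgeR BH-adjusted p = 0.012). Smad3 and Fstl1 were the members whose call turned on that library. In ASO 4 the Schwann cell marker sum was the highest of all 10 libraries and the muscle fiber sum, at 84636 CPM, was the lowest of the ASO libraries. The part of this makeup in the Smad3 value was not tested.

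The inhibitory Smad gene Smad7 (segment 75528507 to 75529006 on the plus strand of chromosome 18) showed no separation. CTRL libraries had 15 to 20 counts and ASO libraries 7 to 49, or 9.37 ± 1.999 and 10.8 ± 6.69 CPM, and the widest ASO values, 3.30 CPM in replicate 5 and 20.7 CPM in replicate 3, lay outside the CTRL range on either side. The log2 fold change of 0.22 had a standard error of 0.40 and a 95% interval from −0.64 to 1.08 (edgeR BH-adjusted p = 0.70), and it was −0.12 without ASO replicate 3.

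**Figure D3:**
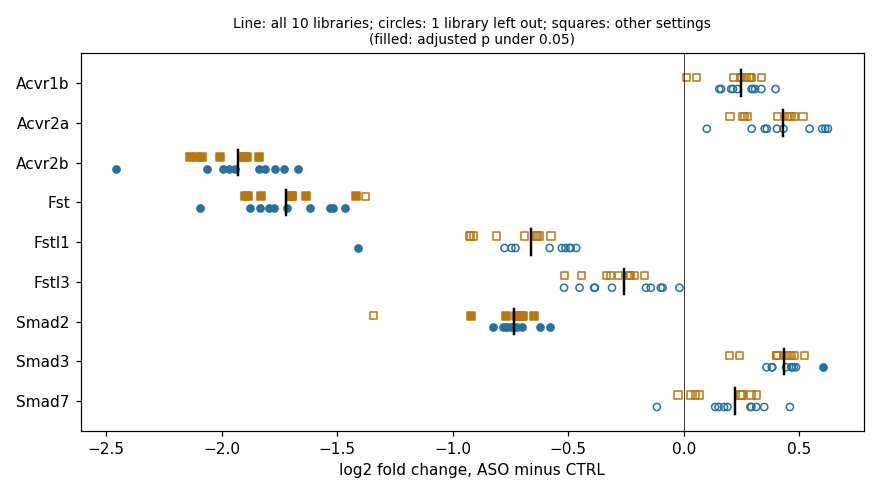
Log2 fold change, ASO minus CTRL (x axis), of the 9 tested members under each setting of the fit. The black line is the fit with all 10 libraries, circles leave out 1 library each, squares are other normalizations, filters, tools and segment choices, and a filled symbol has an adjusted p under 0.05. All circles of Acvr2b, Fst and Smad2 are filled, 1 circle each of Fstl1 and Smad3 is filled, and Smad7 has 1 circle and 1 square left of 0.

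Levels of different genes were compared as CPM per kilobase of unique segment, without Mstn and Acvr2a, whose unique length is under 200 bp. The level of Fstl3 may hold reads of Prss57, and that of Acvr2b misses any transcripts ending beyond its counted segment. In CTRL the order was Fstl1 at 351 ± 126, Smad3 at 270 ± 44.7, Acvr1b at 155 ± 36.9, Smad2 at 31.6 ± 7.95, Fstl3 at 22.2 ± 9.46, Fst at 20.02 ± 7.71, Smad7 at 18.7 ± 3.999 and Acvr2b at 18.3 ± 5.32 CPM per kilobase. Smad3 and Acvr1b, and Acvr1b and Smad2, had ranges over the 5 CTRL libraries that did not overlap, whereas Fstl1 overlapped with Smad3 and the last 5 genes each overlapped with their neighbors. In ASO the order of means began with Smad3 at 364 ± 94.4, Fstl1 at 221 ± 204 and Acvr1b at 184 ± 42.8 and ended with Fst at 6.03 ± 3.996 and Acvr2b at 4.78 ± 3.96 CPM per kilobase. The place of Fstl1 there rested on ASO replicate 4: without it the mean was 130 ± 11.6 CPM per kilobase (n = 4), and in 4 of the 5 ASO libraries Fstl1 was below Acvr1b. Of the neighbors in the ASO order, Acvr1b and Smad7 were the pair whose ranges did not overlap. Taken on the most distal segment only, Fst was at 30.5 and 13.8 and Smad2 at 15.5 and 6.97 CPM per kilobase in CTRL and ASO.

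The wider TGF-beta superfamily pathway was read from a list of 81 further genes. Of these, 53 were tested, 17 were under the filter, 10 had no count and 1 was not in the table. Among the 53, 4 were higher and 8 lower, or 22.6% against the 29.2% of all genes, and their median log2 fold change was −0.29.

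**Figure D4:**
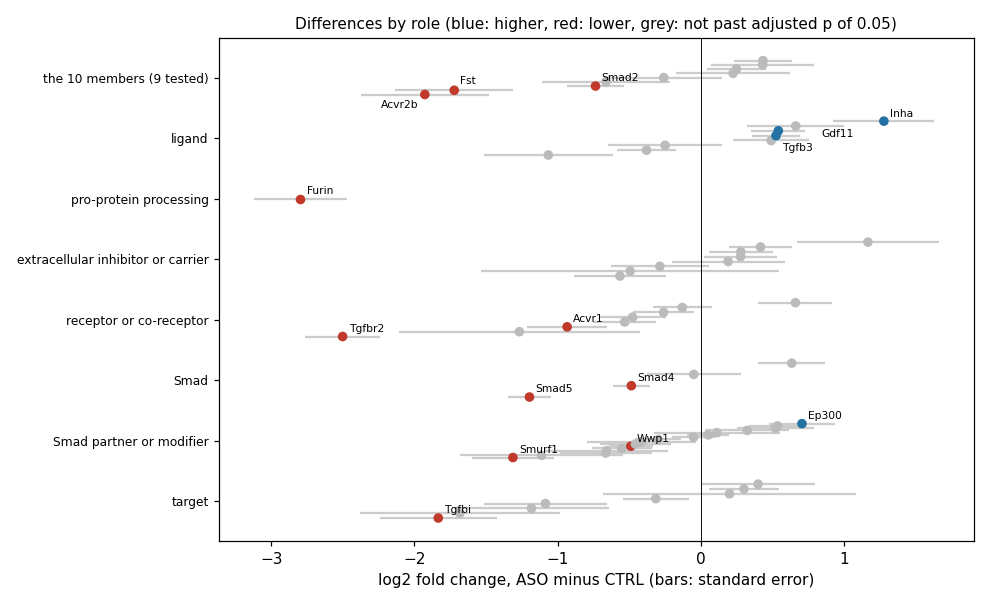
Log2 fold change, ASO minus CTRL (x axis, with its standard error as a bar), of the 9 tested members and of the 53 tested genes of the pathway list, 1 row per role. Red points were lower, blue points higher, and gray points did not pass the threshold. Inha, Gdf11 and Tgfb3 are the blue ligands, and Tgfbr2, Acvr1, Smad5 and Smad4 are red among receptors and Smads.

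Of the 8 tested ligand genes, Inha, Tgfb3 and Gdf11 rose and none fell, where 11.7% of all genes were higher and 17.5% lower. Inha, the inhibin alpha subunit, went from 4.08 ± 2.34 to 9.97 ± 1.70 CPM without overlap (log2 fold change 1.28, edgeR BH-adjusted p = 0.017), and it passed the filter through the ASO group, with 5 ASO and 2 CTRL libraries past the cutoff. Tgfb3, a TGF-beta isoform, went from 59.5 ± 7.58 to 85.5 ± 18.7 CPM (log2 fold change 0.52, edgeR BH-adjusted p = 0.034). Gdf11, the closest paralog of Mstn, went from 26.03 ± 7.17 to 37.9 ± 4.41 CPM (log2 fold change 0.54, edgeR BH-adjusted p = 0.047). On its segment 448 bp lie opposite Sarnp, and reads of Sarnp there cannot be told apart from those of Gdf11. The calls of Tgfb3 and Gdf11 were close to the threshold and were lost in 6 and 7 of 10 fits without 1 library. With only the most distal segment of every gene in the fit, Inha, Tgfb3 and Gdf11 missed the threshold (edgeR BH-adjusted p = 0.057, 0.28 and 0.26). The number of higher genes in the list was 1 with scaling by total counts, and it was 1 without CTRL replicate 4, without CTRL replicate 5 or without ASO replicate 5, and 2 without CTRL replicate 3. Furin, the protease gene whose product cleaves many precursors of the family including promyostatin, went from 19.4 ± 7.41 to 2.72 ± 0.679 CPM (log2 fold change −2.80, edgeR BH-adjusted p = 1.8e-04). Furin passed the filter through the CTRL group, with 5 CTRL and 0 ASO libraries past the cutoff, and 94.9% of its counts were on the upstream segment, while its distal one, 6804 bp away, has only 2 unique bp. Furin could not be tested on its distal segment, and the part of the table-wide shift toward distal ends in its decrease was not tested. None of the 8 tested genes listed as extracellular inhibitors or carriers was called, where 29.2% of all genes were. These 8 include Tcap, whose product is a sarcomere protein and not extracellular. Wfikkn2, which encodes a myostatin-binding protein, had a log2 fold change of 0.28 (edgeR BH-adjusted p = 0.38).

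Of the 8 other receptor genes tested, Tgfbr2 and Acvr1 were lower, where 17.5% of all genes were. Tgfbr2, the TGF-beta type II receptor, went from 65.6 ± 20.4 to 11.5 ± 3.42 CPM (log2 fold change −2.50, edgeR BH-adjusted p = 1.2e-04), again almost wholly on an upstream segment, 4636 bp from the distal one. The distal segment of Tgfbr2 could not be tested either, and the part of the shift toward distal ends in its decrease was not tested. Acvr1, a type I receptor for BMPs and activins, has a single segment and went from 54.7 ± 12.8 to 28.6 ± 10.2 CPM (log2 fold change −0.93, edgeR BH-adjusted p = 0.023), a call lost after thinning and without CTRL replicate 4 (edgeR BH-adjusted p = 0.056 and 0.066). Tgfbr1, the type I partner of Tgfbr2, had a log2 fold change of −0.13 (edgeR BH-adjusted p = 0.67).

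Of the 4 other Smad genes tested, Smad5 and Smad4 were lower, beside 17.5% of all genes. Smad5, which carries BMP signals, went from 98.4 ± 12.6 to 42.8 ± 7.53 CPM (log2 fold change −1.20, edgeR BH-adjusted p = 2.9e-04), and Smad4, the common partner of Smad2 and Smad3, from 127 ± 14.7 to 90.9 ± 11.2 CPM (log2 fold change −0.49, edgeR BH-adjusted p = 0.015). On their most distal segments alone, each segment being a feature of its own, the log2 fold changes were −0.36 for Smad5 (edgeR BH-adjusted p = 0.17) and −0.01 for Smad4 (edgeR BH-adjusted p = 0.957), beside −2.84 and −1.93 on the upstream segments of Smad5 and −1.63 on that of Smad4. With only the most distal segment of every gene in the fit, Smad5 was still lower (−0.63, edgeR BH-adjusted p = 0.045) and Smad4 did not pass (−0.28, edgeR BH-adjusted p = 0.18). Among Smad modifiers, Smurf1 (log2 fold change −1.31, edgeR BH-adjusted p = 0.0048) and Wwp1 (−0.49, edgeR BH-adjusted p = 0.028), both ubiquitin ligase genes, were lower and the acetyltransferase gene Ep300 was higher (0.70, edgeR BH-adjusted p = 0.035). The call of Wwp1 was lost in 4 of 10 other settings and in 6 of 10 fits without 1 library, with adjusted p-values from edgeR up to 0.83. That of Ep300 was lost in 2 of 10 other settings and in 7 of 10 fits without 1 library, with adjusted p-values from edgeR up to 0.13. Wwp1 also differed by segment, with 0.21 on the distal one, which lies opposite Rmdn1, and −1.77 on the upstream one. Of the 8 tested target genes of the pathway, Tgfbi was lower, from 62.0 ± 28.03 to 17.2 ± 11.5 CPM (log2 fold change −1.83, edgeR BH-adjusted p = 0.0057), and the other 7 did not pass, where 17.5% of all genes were lower.

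The share of counts on the most distal segment was higher with the ASO, without overlap, in Smad5, from 43.0 ± 9.12% to 73.1 ± 9.26%, in Smad4, from 61.7 ± 6.96% to 83.1 ± 5.13%, and in Wwp1, from 51.0 ± 7.50% to 80.8 ± 7.39% (exact permutation p = 0.0079 each). With Fst and Smad2, 5 genes were compared in this way, and these p-values were not adjusted. In Smad2 the mean share was lower by a margin within the spread of the libraries, and the difference between genes was not tested.

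**Figure D5:**
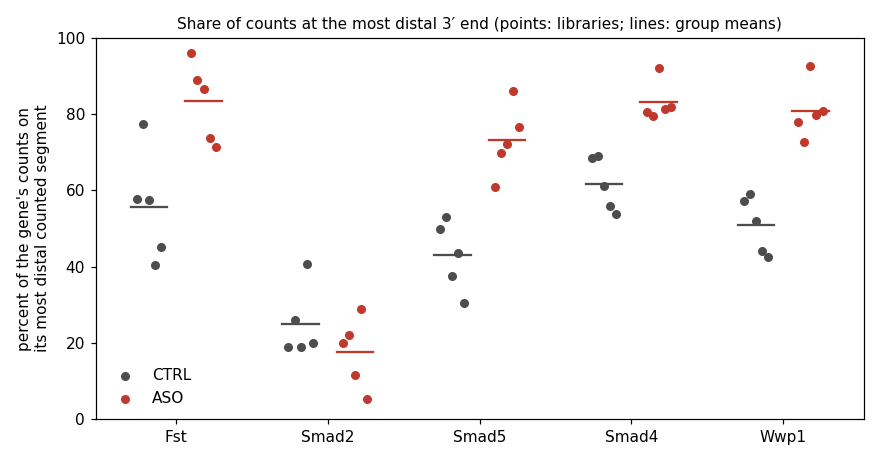
Percent of a gene's counts on its most distal counted segment (y axis, 0 to 100%) for 2 members and 3 genes of the pathway list in 5 CTRL and 5 ASO libraries. Points are libraries and lines are group means. ASO points lie above all CTRL points for Smad5, Smad4 and Wwp1, Fst overlaps with a higher ASO mean, and Smad2 overlaps with a lower one.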

How the data were processed

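RNA of gastrocnemius from 5 ASO and 5 CTRL mice was sequenced as poly(A) libraries. The authors used fastp for trimming, STAR for alignment (GRCm39) and featureCounts for the last 500 bp of 3′UTRs, and what they deposited is a table of raw counts per transcript segment, with no normalization. A further 4 per-sample columns match no sample analysed here and were left aside. Segments were matched to genes by transcript identifier in GENCODE M39 (GRCm39), and 62 of 52423 segments, with 0.0197% of the counts, found no symbol. Identical or overlapping segments leave 18300 without a unique base, so a count of 0 does not show silence.

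The gene-level comparison used edgeR 4.0.16 under R 4.3.3 (TMM, filterByExpr with its minimum of 10 counts, quasi-likelihood test, BH adjustment over all tested genes). Standard errors were derived from the F statistic, and intervals are 95%. Single values were compared by two-sided exact permutation tests on mean log2 CPM or, for shares, on the percentages. Library totals give the depth, and the floor of 3 counts covers counting error only. Alternatives were RLE, upper quartile and total-count scaling, no filter, at least 10 counts in every library, DESeq2 1.42.0, limma-voom (limma 3.58.1), thinning to the smallest total, the most distal segment only, a replicate block and leaving out each library. The distal index used segments at least 1000 bp apart with at least 50 counts on each side and 0.5 added. Procedures were tested on simulated data. The members and gene lists were chosen with earlier results of these data known. Named genes are the members, up to 20 called genes of the pathway list and the 3 nearest to Mstn. Tgfbr1, Wfikkn2 and Tcap were named after their values were seen, and so were the genes of the marker lists.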

Additional observations from a re-analysis of the deposited data

Results flagged for a closer look

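In 20 groups of 5 libraries (10 genes in ASO and CTRL), 1 library stood far from the other 4. ASO replicate 4 had 293 CPM of Fstl1 while the other ASO libraries had 58.5 to 72.4 CPM, so that the gap was 0.94 of the whole range, above the 95% critical value of 0.71 for 5 samples. By chance about 1 in 20 groups would be marked in this way.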

How the results depend on the processing

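The decrease of Acvr2b kept its direction and passed the threshold in all 8 settings that could test it (log2 fold change −2.14 to −1.84) and in the 10 fits without 1 library. The setting with only the most distal segments was no separate check of Acvr2b, since its most distal counted segment held 99.1% of its counts. Its annotated 3′UTR runs on past that segment, with the seed match 3113 bp downstream, and a shift toward ends beyond the segment was not tested. Acvr2b could not be tested after thinning, nor, like Fst and Smad7, with at least 10 counts in every library, where 1 member of 6 tested, Smad2, was called lower. Fst and Smad2 also held without any 1 library, but on the most distal segments alone they were at −1.38 and −1.34 and missed the threshold (edgeR BH-adjusted p = 0.052 and 0.058), which left 1 member called lower. Smad7 was on the lower side there (−0.025) and ran from −0.12, without ASO replicate 3, to 0.46 when leaving out each library. The number of members called higher was 0 to 1 when leaving out each library, the 1 being Smad3 without ASO replicate 4. The member with a call lost under the replicate block was Smad2 (−0.72, edgeR BH-adjusted p = 0.058), and the block left 663 genes higher and 1175 lower. Same-numbered libraries correlated between −0.43 and 0.16 and none correlated best with its own number, so the numbers were not taken as pairs.

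Over all genes, 916 were higher and 1365 lower. Scaling by total counts gave 528 and 1821 and moved the all-gene median of the log2 fold change from −0.03 to −0.21, upper quartile scaling gave 1261 and 1207, and the distal segments alone gave 388 and 604 of 6081 tested. In the pathway list, with 4 higher and 8 lower, the higher genes numbered 7 with upper quartile, 1 with total counts, 2 with at least 10 counts in every library, 1 on distal segments and 1 to 5 without 1 library, and the lower ones 13 with total counts and 2 on distal segments, where Tgfbr2, Furin, Smurf1 and Tgfbi could not be tested and 44 genes were. With the hexamer GCAGCT, 8 members had a seed match, as did 69.4% of all genes. On distal segments the level of Fst was 30.5 in CTRL and 13.8 in ASO and that of Smad2 15.5 and 6.97 CPM per kilobase. The causes were not tested. Low counts limit Mstn, Acvr2b, Fstl3 and Smad7 most.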

Other observations

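In the satellite cell marker list, Cdh15, which encodes M-cadherin, rose from 38.3 to 89.6 CPM (log2 fold change 1.23, edgeR BH-adjusted p = 3.3e-04), while Calcr was at 0 in every library. The list summed to 71.6 to 117 CPM in CTRL and to 121 to 155 CPM in ASO, and 1 of its 4 tested genes was called. Without Cdh15 the sums overlapped, at 41.0 to 75.5 CPM in CTRL and 31.6 to 58.02 CPM in ASO. None of the 5 tested endothelial markers, 6 adipocyte markers, 4 Schwann cell markers and 4 blood markers was called, where 29.2% of all genes were. Of the 6 tested macrophage markers 1 was lower, beside 17.5% of all genes, and the defining markers Adgre1 and Cd163 were at 0 in every library. Blood markers summed to 891 to 1468 CPM in CTRL and 282 to 1714 CPM in ASO, with Alas2 at 0. Muscle fiber markers summed to 40595 to 79765 CPM in CTRL and to 84636 to 130012 CPM in ASO, without overlap. Of the 4 tested muscle fiber genes 2 were higher, beside 11.7% of all genes. The part of this difference in the levels of other genes was not tested.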
